A study of Mus musculus with 27 samples.

Results

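Dural macrophages from mice given T cells without the interleukin-6 receptor alpha chain and the interleukin-21 receptor (IL-6Ra/IL-21R knockout T cells) were compared with dural macrophages from mice given total T cells. The comparison takes 12 of the series' 27 libraries, chosen by their labels and column names: 7 of the knockout T-cell group (3 female, 4 male) and 5 of the total T-cell group (4 female, 1 male). All mice were Rag1 ko mice of the B6 strain, 16 to 19 weeks old, and lack lymphocytes of their own because Rag1 is needed to build antigen receptors. The total T-cell group was studied 6.5 weeks after it had received total B6 T cells, and the other group 6.5 weeks after it had received IL6Ra ko/IL21R ko T cells. Macrophages were sorted from digested dura mater after the blood had been flushed out. The markers of that sort were not given in the sources used here. A background group of 6 libraries, from Rag1 ko mice without T cells, is shown beside them. Libraries are named by group, sex and a running number, so that "knockout M4" is the fourth male library of the knockout group. Some column names, that of knockout M4 among them, could denote pooled animals. Nothing in the labels ties each library to its own animal, and the p-values therefore reflect spread among libraries that may be technical.

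The dura mater is the outer meningeal layer, and its resident macrophages sit beside blood vessels and sample their surroundings. IL-6 and IL-21 act on T cells through STAT3 and help them to become IL-17-producing helper cells and follicular helper cells. A T cell without both genes lacks its own receptor chains for those signals. T cells in turn act on macrophages through cytokines such as interferon-gamma (IFN-gamma). IFN-gamma binds a receptor made of Ifngr1 and Ifngr2 chains and activates JAK kinases, which induces guanylate-binding proteins, antigen presentation and antimicrobial enzymes. The knockout was in the transferred T cells, so Il6ra and Il21r in the macrophage libraries do not check it.

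The 12 libraries held 10300692 to 19966749 counts and 14534 to 17015 detected genes. They divide by how much of their RNA comes from ribosomal protein genes, here genes whose symbols begin with Rps or Rpl and a digit. Total T F1, F2 and M1 had 33623, 32665 and 30314 CPM (counts scaled to a common library total) from these genes, whereas total T F3 and F4 had 15023 and 16228. All 7 knockout libraries were under the limit of 20000 set for this split, at 11757 to 15229 CPM in 6 of them and 7914 in knockout M4. The libraries without T cells split the same way, with 4 at 27575 to 31463 and 2 at 13272 and 13493. The comparison with total T F3 and F4 alone, without knockout M4 (6 libraries against 2), is therefore given beside each main result and called the low-ribosomal comparison. Where a pair of values with q stands in parentheses, the second log2 value and q are from that comparison. On the first principal component of the 12 libraries, with 39.7% of the variance, total T F3 and F4 lay at -16.5 and -20.3, nearer to the knockout libraries (16.6 to 62.1) than total T F1 (-97.6), F2 (-62.4) and M1 (-82.8).

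The split reached some genes completely. There were 21 genes at least 20-fold higher in each of the 3 high-ribosomal total T libraries than in any of the other 9 libraries. They were 19 ribosomal protein genes, Fau, which encodes a ribosomal protein fused to a ubiquitin-like protein, and Actg1, the cytoplasmic gamma actin. In the libraries without T cells, 20 of the 21 divided the same way. Rps29, of the small ribosomal subunit, had 468, 516, 1.04, 2.46 and 375 CPM in total T F1, F2, F3, F4 and M1, and 0.464 to 2.44 in the knockout libraries. Total T F3 was within the knockout range and F4 just above its upper end, and the log2 fold change of -7.84 over all 12 libraries (q = 0.000107) was -0.62 (q = 0.893) in the low-ribosomal comparison. The ribosomal protein genes Rpl36a, Rps27 and Rps6 had the same pattern. The table's ribosomal protein genes include many near-identical copies, so reads may be divided between them. Of 97 ribosomal protein genes tested, 73 fell and 1 rose, and 3 fell in the low-ribosomal comparison. These 21 genes are not read below as differences between the T-cell groups.

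**Figure D1:**
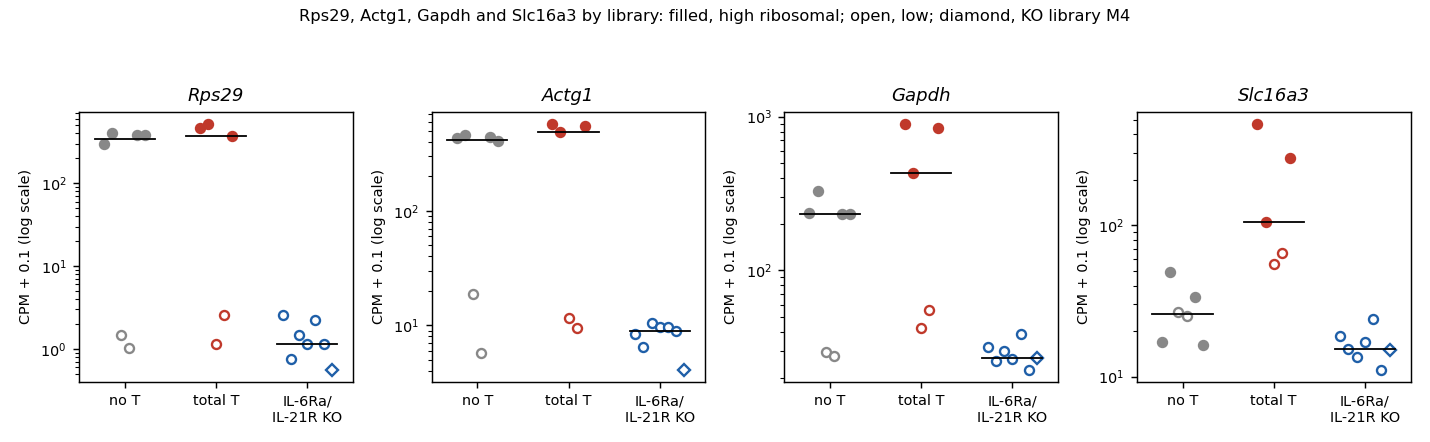
CPM plus 0.1 (log axis) of Rps29, Actg1, Gapdh and Slc16a3 in each library without T cells, with total T cells and with IL-6Ra/IL-21R knockout T cells. Filled points are libraries over the ribosomal limit, open points those under it, the diamond is knockout M4 and lines are medians. The open total T and no T points of Rps29 and Actg1 lie at or near the knockout points, and those of Slc16a3 in total T lie above all knockout points.

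Of 12661 genes tested with edgeR's quasi-likelihood test, 3567 (28.2%) differed at an adjusted p (q) under 0.05. In the knockout group 1658 genes (13.1%) were higher and 1909 (15.1%) lower, and the median log2 fold change of all genes tested was 0.026. In the low-ribosomal comparison 745 genes (5.88%) differed, 311 higher and 434 lower, and 719 of these were also called over all 12 libraries, all with the same sign. Without knockout M4 alone 3673 genes were called. Over all genes tested, every knockout library was above every total T library for 4.31% and below for 6.53%. All log2 fold changes are knockout minus total T, ± standard error. The libraries without T cells give a range only and were not tested against the knockout group here. In bulk RNA, fewer cells of a type and less RNA per cell cannot be told apart.

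**Figure D2:**
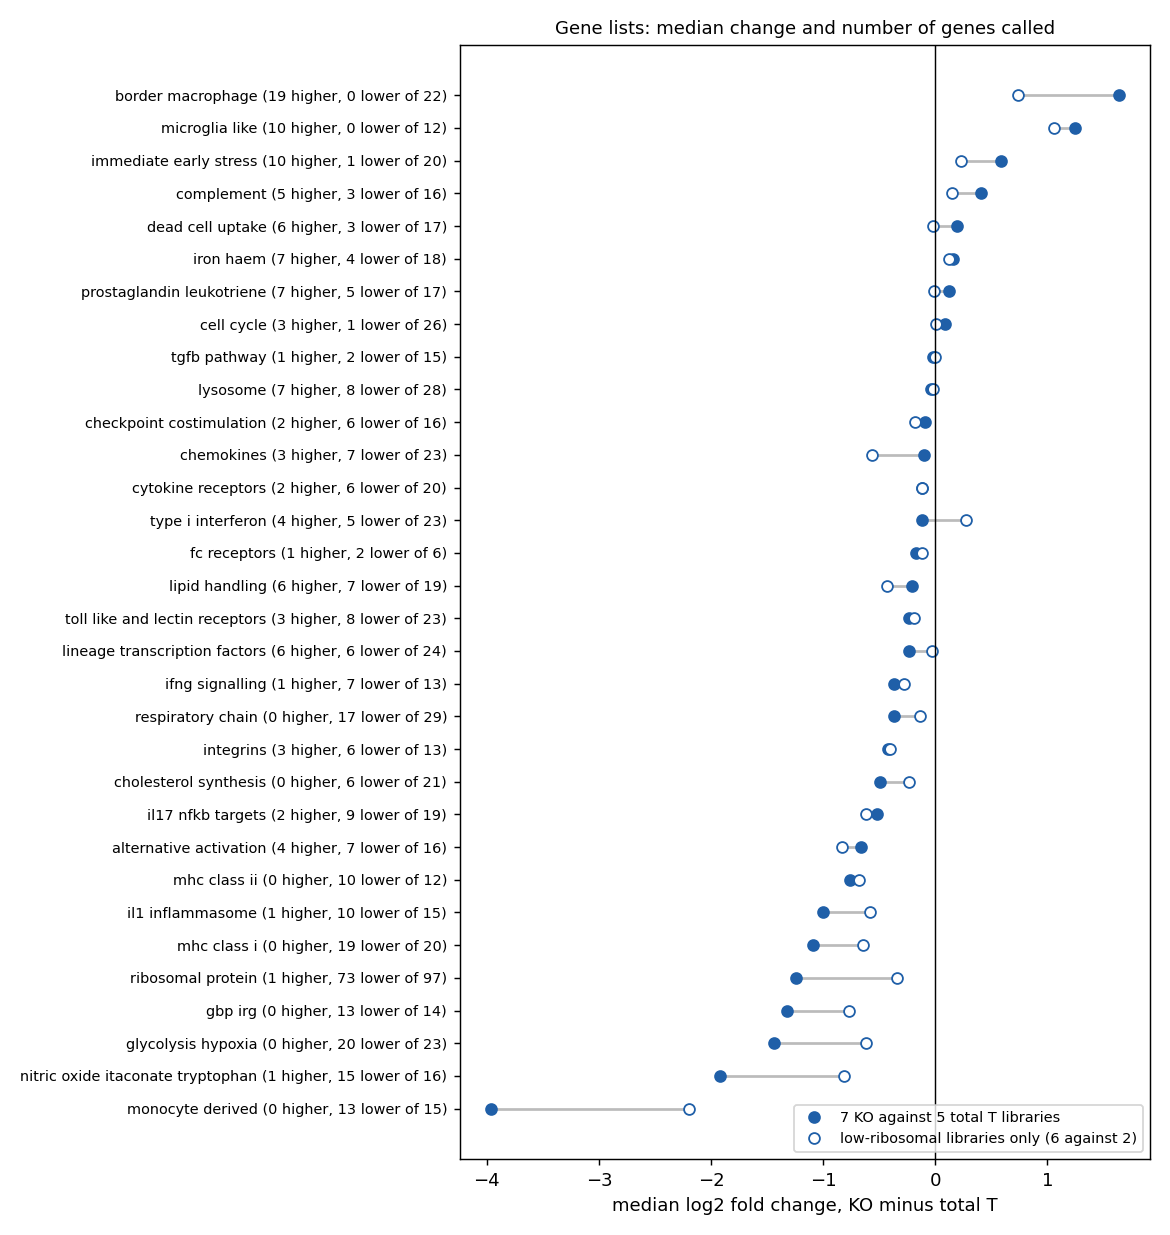
Median log2 fold change (knockout minus total T) of each gene list over all 12 libraries (filled) and in the low-ribosomal comparison of 6 against 2 libraries (open), with the number of members called higher and lower over all 12. Monocyte-derived cell genes lie at -3.96 and -2.20, border macrophage genes at 1.64 and 0.74, and type I interferon genes change sign from -0.12 to 0.27.

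Transcripts of the cytokine itself were nearly absent. Ifng, which encodes IFN-gamma and is made by T and NK cells, had 4.14 CPM in total T F1, 0.376 in total T M1 and 0 in the other 3 total T libraries and all 7 knockout libraries. Il17a, the main cytokine of IL-17-producing T cells, was found in total T F1 alone, at 1.09 CPM. Both were too low to be tested. Among the 12 T-cell markers, Cd3d had 4.76 CPM, Lck 4.01 and Cd8a 5.16 in total T F1. The other total T libraries had at most 2.90 of each, and the knockout libraries at most 0.609, 0.927 and 0.523. Cd3e was alike, at most 0.951 in total T and 0.958 in the knockout libraries. The summed list, which includes Cd4 and Cd28, did not follow Cd3d, Lck and Cd8a. It was lowest in total T F1, at 48.2 CPM, with up to 142 in the other total T libraries and 105 to 219 in the knockout libraries. The tested members Cd4 (0.95 ± 0.32, q = 0.0308; 0.31 and q = 0.633) and Cd28 (2.82 ± 0.48, q = 0.000123; 2.52 and q = 0.0420) rose, and the other 10 were too low to be tested.

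On the receiving side, the receptor chains moved little. Ifngr1, the ligand-binding chain, did not pass (0.18 ± 0.10, q = 0.177), and Ifngr2, the signalling chain, fell by 0.37 ± 0.13 (q = 0.0285; -0.28 and q = 0.404 in the low-ribosomal comparison). Jak2, a kinase bound to the receptor, fell by 1.47 ± 0.23 (q = 5.55e-05), and Socs1, a feedback inhibitor of JAK kinases, by 1.80 ± 0.31 (q = 0.000128). In the low-ribosomal comparison they were at -0.73 (q = 0.0797) and -0.78 (q = 0.209). Socs3, the feedback inhibitor best known from IL-6 signalling, moved the other way, with 1071, 1531, 1315, 1140 and 1045 CPM in total T F1, F2, F3, F4 and M1 and 1468 to 2532 (median 2030) in the knockout libraries. The groups overlapped for Socs3, and it rose by 0.66 ± 0.13 (q = 0.000355; 0.61 and q = 0.0247 in the low-ribosomal comparison). Irf1, a transcription factor induced early by IFN-gamma, did not pass (0.35 ± 0.22, q = 0.255; 0.81 and q = 0.0890) and overlapped between the groups. In a refit chosen after seeing the data, with the libraries' ribosomal level as a term, Irf1 passed as higher (0.90, q = 0.004545). The gene Gm17334 lies across Irf1 on the opposite strand. Of the 13 genes listed for IFN-gamma signalling, 7 fell and 1 rose, with a median of -0.37, and 2 fell and 1 rose in the low-ribosomal comparison.

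Guanylate-binding proteins (Gbp genes) and immunity-related GTPases (Irg genes) are IFN-gamma targets that attack vacuoles holding microbes. Of 14 tested, 13 fell and none rose, with a median of -1.32 against 0.026 for all genes, and in the low-ribosomal comparison 6 fell and none rose, with a median of -0.77. Gbp2 had 1680, 466.2, 282, 449 and 1255 CPM in total T F1, F2, F3, F4 and M1 and 65.6 to 132 (median 78.0) in the knockout libraries. No knockout library reached the lowest total T value, and the libraries without T cells had 54.5 to 175. It fell by 3.15 ± 0.36 (q = 3.97e-06) and by 1.83 (q = 0.00361) in the low-ribosomal comparison.

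Gbp2b, its neighbour on chromosome 3, had 280, 174, 109, 189 and 411 CPM in the same order and 31.0 to 74.9 (median 39.1) in the knockout libraries, again with no overlap. It fell by 2.34 ± 0.26 (q = 3.69e-06) and by 1.54 (q = 0.00371) in the low-ribosomal comparison. Gbp4 fell by 3.32 ± 0.39 (q = 5.31e-06; -1.95 and q = 0.00610 in the low-ribosomal comparison). These genes have close copies, so the reads of a single member are uncertain. Irgm2 was the member that did not pass, at -0.14.

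Promoters are shown for the genes of smallest q with a RefSeq entry in the Gbp and Irg, MHC class I, MHC class II and border macrophage lists (6 genes), because interferon-activated factors bind short known sequences in such regions. RefSeq promoter windows of 250 bases before the transcription start were searched on both strands for the interferon-stimulated response element core (GAAA, any 2 bases, GAAA) and the gamma-activated sequence (TTC, any 3 bases, GAA). Positions are on GRCm38.p6, the sequences run 5′ to 3′ on the gene's strand, and capitals mark the matches. Gbp2b lies at chr3:142594597-142594846 and Gbp2 at chr3:142620413-142620662, both on the plus strand. Ctss, the protease cathepsin S that prepares MHC class II for peptide loading, lies at chr3:95526536-95526785 on the plus strand. Tap1, of MHC class I peptide transport, lies at chr17:34187306-34187555 and H2-DMb1, of MHC class II peptide exchange, at chr17:34152941-34153190, both on the plus strand. Cbr2, a border macrophage gene that rose, lies at chr11:120732022-120732271 on the minus strand. Tap1, H2-DMb1 and Cbr2 held neither motif in this window.
Gbp2b: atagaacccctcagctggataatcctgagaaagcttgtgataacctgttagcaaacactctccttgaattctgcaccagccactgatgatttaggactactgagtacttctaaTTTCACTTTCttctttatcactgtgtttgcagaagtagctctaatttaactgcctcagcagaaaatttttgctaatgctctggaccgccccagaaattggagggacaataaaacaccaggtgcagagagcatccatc
Gbp2: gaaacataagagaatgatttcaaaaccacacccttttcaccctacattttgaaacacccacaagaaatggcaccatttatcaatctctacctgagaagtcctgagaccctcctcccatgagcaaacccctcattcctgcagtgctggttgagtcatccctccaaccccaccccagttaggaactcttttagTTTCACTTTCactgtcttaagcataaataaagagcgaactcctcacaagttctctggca
Ctss: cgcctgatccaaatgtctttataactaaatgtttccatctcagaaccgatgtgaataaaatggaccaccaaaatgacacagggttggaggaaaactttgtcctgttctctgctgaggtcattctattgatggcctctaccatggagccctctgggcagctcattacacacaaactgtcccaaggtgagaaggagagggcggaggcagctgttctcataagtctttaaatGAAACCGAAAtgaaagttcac
Tap1: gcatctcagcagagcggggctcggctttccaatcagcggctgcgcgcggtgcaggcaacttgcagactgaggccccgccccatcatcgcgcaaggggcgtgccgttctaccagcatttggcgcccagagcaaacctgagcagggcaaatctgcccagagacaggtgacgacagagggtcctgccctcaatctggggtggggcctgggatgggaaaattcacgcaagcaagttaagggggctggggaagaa
H2-DMb1: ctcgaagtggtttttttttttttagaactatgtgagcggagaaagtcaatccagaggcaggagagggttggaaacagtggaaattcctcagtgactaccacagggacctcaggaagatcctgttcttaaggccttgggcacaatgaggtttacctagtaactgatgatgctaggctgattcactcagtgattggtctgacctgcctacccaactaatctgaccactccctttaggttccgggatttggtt
Cbr2: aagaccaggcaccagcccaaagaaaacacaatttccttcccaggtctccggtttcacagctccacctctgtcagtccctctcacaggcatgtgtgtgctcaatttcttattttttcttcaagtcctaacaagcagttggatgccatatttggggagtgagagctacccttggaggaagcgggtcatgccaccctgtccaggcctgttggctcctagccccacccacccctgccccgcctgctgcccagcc
The matches in Gbp2b and Gbp2 carry the same letters, TTTCACTTTC, starting 137 and 59 bases before the start, and that in Ctss begins 21 bases before it. These starts are those of RefSeq. The windows of Gbp2, Tap1, H2-DMb1 and Cbr2 run past the start of the gene in GENCODE M21, the annotation used for gene positions. The Gbp2 match lies inside its GENCODE span, which begins at chr3:142620602. The response element core was in 9 of the 10 Gbp and Irg promoters with a RefSeq entry (90.0%) and the gamma-activated sequence in 5 of the 10. Among MHC class I promoters the response element core was in 3 of 17 (17.6%) and the gamma-activated sequence in 2 (11.8%), and among MHC class II promoters each was in 1 of 9 (11.1%). Of 17 border macrophage promoters none held the response element core and 1 the gamma-activated sequence (5.88%). In all 32851 promoter windows, counted singly, the shares were 2.98% and 7.02%. The list shares are per gene, with a match in any of its windows. Counted that way, the 9822 tested genes with a window had 3.51% and 7.11%. Among tested genes with a window, the response element core was in 6.64% of the 1490 genes called lower, 2.55% of the 1255 called higher and 3.02% of the 7077 not called. The gamma-activated sequence was in 7.38%, 7.01% and 7.07% of them. A match is a description of letters and shows no binding.

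MHC class I presentation genes, which cut, carry and display peptides of proteins made in the cell, were lower almost throughout. Of 20 tested, 19 fell and none rose, with a median of -1.09, and for 19 every knockout library was below every total T library. In the low-ribosomal comparison 15 fell and the median was -0.64. Tap1, a subunit of the peptide transporter of the endoplasmic reticulum, had 973, 698, 415, 540 and 975 CPM in total T F1, F2, F3, F4 and M1 and 130 to 262 (median 232) in the knockout libraries. The highest knockout library was below the lowest total T library, and the range without T cells was 196 to 276. Tap1 fell by 1.76 ± 0.19 (q = 2.7e-06) and by 1.05 (q = 0.00233) in the low-ribosomal comparison. Tap2, its partner, fell by 1.28 ± 0.16 (q = 6.64e-06; -0.71 and q = 0.00426). Nlrc5, the transcriptional activator of MHC class I genes, fell by 1.60 ± 0.21 (q = 1.12e-05; -0.82 and q = 0.0282). Psmb9, an immunoproteasome subunit, overlaps Tap1 on the opposite strand, and 9330175E14Rik overlaps Nlrc5. The libraries are unstranded, so reads of such pairs cannot be told apart. Psme2, a proteasome activator subunit, depended on the library split: it was -2.42 ± 0.35 (q = 2.52e-05) over all 12 libraries and -0.71 (q = 0.147) in the low-ribosomal comparison.

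MHC class II genes, which display peptides to helper T cells, were lower too. Of 12 tested, 10 fell and none rose, with a median of -0.76, and 8 fell in the low-ribosomal comparison with a median of -0.68. H2-DMb1, part of the peptide exchange complex, had 645, 741, 737, 652 and 715 CPM in total T F1, F2, F3, F4 and M1, where the ribosomal split did not show. The knockout libraries had 178 to 583 (median 409), all below, with M4 lowest. It fell by 0.79 ± 0.17 (q = 0.00108; -0.68 and q = 0.0139 in the low-ribosomal comparison). Ctss fell by 0.82 ± 0.12 (q = 3.59e-05; -0.59 and q = 0.0177). Ciita, the activator of class II genes, was at -1.04 ± 0.24 (q = 0.00244) with overlapping groups and at -0.77 (q = 0.190) in the low-ribosomal comparison. Dexi overlaps Ciita on the opposite strand. Cd74, the invariant chain, ranged from 19970 to 32030 CPM in the total T libraries and from 8906 to 28020 in the knockout libraries, which overlapped (-0.61 ± 0.18, q = 0.0140; -0.71 and q = 0.0204).

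**Figure D3:**
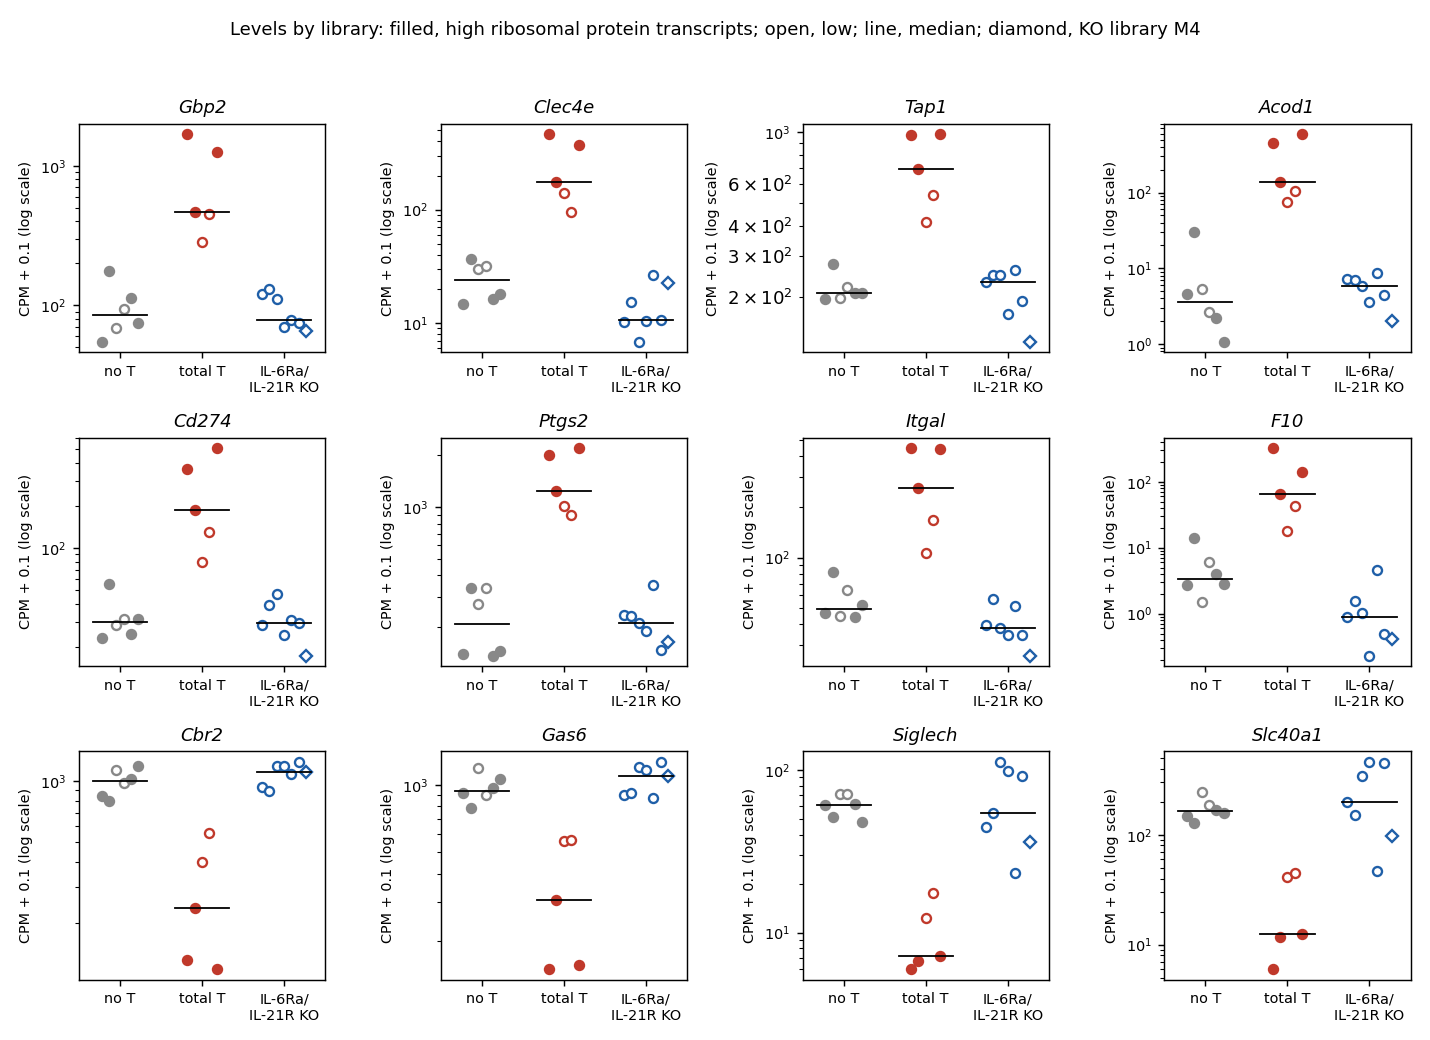
CPM plus 0.1 (log axis, range set per gene) of 12 genes in each library without T cells, with total T cells and with IL-6Ra/IL-21R knockout T cells. Filled points are libraries over the ribosomal limit, open points those under it, the diamond is knockout M4 and lines are medians. For all 12 genes the open and filled total T points lie on the same side of every knockout point.

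Genes of antimicrobial metabolism were lower. Of 16 listed genes of nitric oxide, itaconate, tryptophan and superoxide production that were tested, 15 fell and 1 rose, with a median of -1.92, and 3 fell in the low-ribosomal comparison with a median of -0.81. Acod1, which makes itaconate from a citric acid cycle intermediate, had 447, 138, 75.8, 105 and 586 CPM in total T F1, F2, F3, F4 and M1. The knockout libraries had 1.93 to 8.63 (median 5.66), and the lowest total T library was far above the highest of them. It fell by 5.63 ± 0.70 (q = 7.22e-06) and by 3.63 (q = 0.0106) in the low-ribosomal comparison. Cybb, the catalytic subunit of the phagocyte NADPH oxidase, fell by 1.17 ± 0.16 (q = 1.23e-05; -0.65 and q = 0.00939).

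Nos2, the inducible nitric oxide synthase, had 304, 7.52, 0.939, 5.33 and 141 CPM in total T F1, F2, F3, F4 and M1 and at most 0.261 in the knockout libraries, with a median of 0. The groups did not overlap, but total T F1 and M1 held most of the signal. Its q was 0.000155 over all 12 libraries and 0.240 in the low-ribosomal comparison, and fitted folds of so low a gene depend on the prior count. Arginases, which compete with Nos2 for arginine, were low in the knockout libraries too. Arg1 had 93.3 and 72.1 CPM in total T F1 and M1, 2.96 or less in the other 3, and at most 1.25 in the knockout libraries, so the groups overlapped. Kmo, of the kynurenine pathway, was the member that rose (0.91 ± 0.23, q = 0.00492; 0.27 and q = 0.588 in the low-ribosomal comparison), and Fh1 overlaps it on the opposite strand.

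The IL-1 pathway was lower at the level of ligand, antagonist and decoy receptor. Of 15 genes of the IL-1 and inflammasome list, 10 fell and 1 rose, with a median of -1.0 (6 fell and none rose in the low-ribosomal comparison, median -0.58). Il1b, the secreted cytokine, had 2876, 1722, 2212, 1417 and 2099 CPM in total T F1, F2, F3, F4 and M1 and 364 to 1289 (median 413) in the knockout libraries. All knockout values were lower, and total T F3 was as high as the high-ribosomal libraries. It fell by 1.92 ± 0.33 (q = 0.000145) and by 1.73 (q = 0.0262) in the low-ribosomal comparison.

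Il1rn, the receptor antagonist, fell by 2.57 ± 0.38 (q = 3.55e-05; -2.33 and q = 0.0141), and Il1r2, the decoy receptor, by 5.01 ± 0.73 (q = 3.1e-05; -3.92 and q = 0.0116). Mefv, the inflammasome sensor pyrin, fell by 2.98 ± 0.39 (q = 1.17e-05; -1.97 and q = 0.0243). Nlrc4, the sensor adaptor for bacterial flagellin, was the member that rose (0.54 ± 0.20, q = 0.0464; 0.34 and q = 0.549).

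Target genes shared by IL-17 and NF-kB moved both ways. Of 19 tested, 9 fell and 2 rose, with a median of -0.52 (3 fell and 1 rose in the low-ribosomal comparison, median -0.62). Il17ra, the receptor's common chain, did not pass (-0.30 ± 0.16, q = 0.156). Nfkb2, an NF-kB subunit, fell by 0.95 ± 0.14 (q = 4.57e-05; -0.57 and q = 0.0525), with Psd on the opposite strand. Lcn2, the iron-binding lipocalin, had 24.9, 24.4, 11.6, 5.42 and 12.7 CPM in total T F1, F2, F3, F4 and M1 and 0 to 1.85 in the knockout libraries, with no overlap (-5.67 ± 1.07, q = 0.000331; -5.38 and q = 0.0177). The libraries without T cells had 0 to 75.3 CPM of Lcn2. Nfkbiz, an NF-kB cofactor that IL-17 and Toll-like receptors induce, was higher in every knockout library and rose by 0.92 ± 0.17 (q = 0.000268; 0.69 and q = 0.0366). Cebpd, a partner of NF-kB at IL-17 target genes, rose by 1.32 ± 0.24 (q = 0.000259) and was at 1.05 (q = 0.0546) in the low-ribosomal comparison. Spidr overlaps Cebpd on the opposite strand.

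The cyclooxygenases, which start prostaglandin synthesis, moved in opposite directions. Ptgs2, the inducible cyclooxygenase, had 2005, 1236, 1009, 893 and 2200 CPM in total T F1, F2, F3, F4 and M1 and 146 to 350 (median 212) in the knockout libraries. The groups were far apart, and the libraries without T cells had 136 to 338. Ptgs2 fell by 2.75 ± 0.29 (q = 2.7e-06), which is 6.75-fold, and by 1.98 (q = 0.00371) in the low-ribosomal comparison. Ptgs1, the constitutive cyclooxygenase, rose by 1.19 ± 0.19 (q = 8.06e-05; 0.77 and q = 0.00610), with overlapping groups. Hpgd, which degrades prostaglandins, rose by 2.19 ± 0.40 (q = 0.000230; 1.31 and q = 0.0239). Ltc4s, the leukotriene C4 synthase, rose by 2.26 ± 0.39 (q = 0.000133; 1.31 and q = 0.0166). Over the whole list of 17 genes, 7 rose and 5 fell, and the median was 0.12 over all 12 libraries and -0.01 in the low-ribosomal comparison.

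Chemokines differed from member to member. Of 23 tested, 7 fell and 3 rose (1 fell and 2 rose in the low-ribosomal comparison), with medians of -0.10 and -0.56, which became 0.47 against total T F1, F2 and M1 alone. Cxcl9, an IFN-gamma-induced attractant of CXCR3-bearing T cells, had 1326, 752, 125, 613 and 2198 CPM in total T F1, F2, F3, F4 and M1 and 54.7 to 159 (median 64.2) in the knockout libraries. Total T F3 lay inside the knockout range, and the fall of 3.46 ± 0.62 (q = 0.000210) was 1.72 (q = 0.180) in the low-ribosomal comparison. Ccl5, which attracts T cells, fell by 4.20 ± 0.71 (q = 0.000120) with no overlap, and was at -1.95 (q = 0.157) there. Pf4, a chemokine typical of border macrophages, rose by 1.85 ± 0.31 (q = 0.000125; 1.05 and q = 0.0130), and Ccl24, an eosinophil attractant, by 3.01 ± 0.54 (q = 0.000210; 2.09 and q = 0.0263).

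Molecules through which macrophages instruct T cells were lower for some members. Cd274 (PD-L1), the ligand of the inhibitory receptor PD-1, had 361, 186, 79.3, 131 and 511 CPM in total T F1, F2, F3, F4 and M1 and 17.2 to 46.9 (median 29.3) in the knockout libraries. The groups did not overlap, and the libraries without T cells had 22.96 to 55.1. Cd274 fell by 3.05 ± 0.37 (q = 6.09e-06; -1.62 and q = 0.0104), and Cd40, a costimulatory receptor, by 1.76 ± 0.24 (q = 1.47e-05; -0.996 and q = 0.0277). Of 16 checkpoint and costimulation genes 6 fell and 2 rose, with a median of -0.09, and in the low-ribosomal comparison 2 fell.

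Among cytokine receptors, Il6ra and Il21r did not pass in the macrophages. Il6ra had 113 to 150 CPM in the total T libraries and 124 to 162 in the knockout libraries (0.15 ± 0.11, q = 0.292), and Il21r 128 to 166 and 112 to 173 (0.03 ± 0.13, q = 0.871). Csf2rb, the common beta chain for GM-CSF, IL-3 and IL-5, fell by 1.84 ± 0.24 (q = 1.14e-05; -1.10 and q = 0.00821), and Il2rg, the common gamma chain, by 1.76 ± 0.25 (q = 2.82e-05; -0.96 and q = 0.0460). Fcgr4, an activating IgG receptor, had 565, 578, 354, 361 and 525 CPM in total T F1, F2, F3, F4 and M1 against 104 to 178 (median 143) in the knockout libraries, with no overlap. It fell by 1.75 ± 0.18 (q = 2.01e-06; -1.24 and q = 0.00276), whereas Fcgrt, the receptor that recycles IgG, rose by 0.82 ± 0.21 (q = 0.00505; 0.30 and q = 0.299).

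Type I interferon response genes did not move as a block. Of 23 tested, 5 fell and 4 rose, and the median was -0.12 over all 12 libraries and 0.27 in the low-ribosomal comparison, where 1 rose and none fell. Oas2, a sensor of double-stranded RNA, had 16.8 to 21.7 CPM in the 5 total T libraries and 32.4 to 51.1 (median 40.5) in the knockout libraries, without overlap, and rose by 1.01 ± 0.17 (q = 0.000124; 0.96 and q = 0.0265). Isg15, a ubiquitin-like effector, was at -0.94 ± 0.23 (q = 0.00307) over all 12 libraries and at -0.21 (q = 0.673) in the low-ribosomal comparison.

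**Figure D4:**
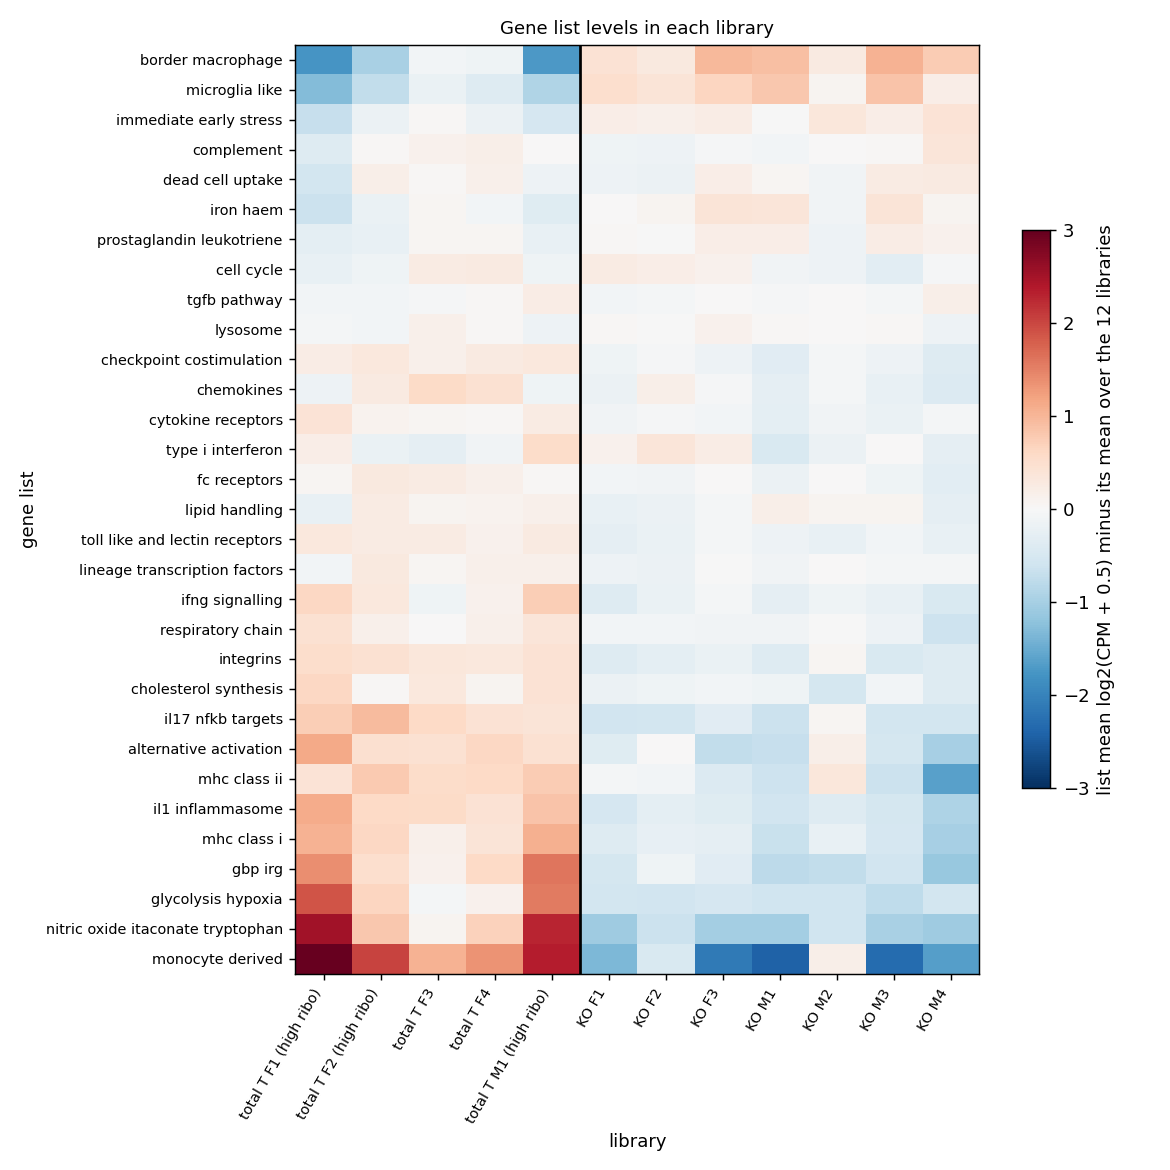
Mean log2(CPM + 0.5) of the members of each gene list in each of the 12 libraries, minus the list's mean over these libraries (red higher, blue lower). Total T F3 and F4 are paler than total T F1, F2 and M1 in most lists, and knockout M2 is redder than the other knockout libraries for monocyte-derived cell and MHC class II genes.

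Genes typical of monocyte-derived cells, which enter tissues from the blood, were lower. Of 15 tested, 13 fell and none rose, with a median of -3.96, and 9 fell in the low-ribosomal comparison with a median of -2.20. The summed level was 3159 to 13190 CPM in the total T libraries, 774 to 1632 in the knockout libraries and 1097 to 1979 without T cells. Itgal, the alpha chain of LFA-1, had 448, 260, 106, 166 and 444 CPM in total T F1, F2, F3, F4 and M1 and 26.0 to 56.5 (median 37.9) in the knockout libraries, with no overlap. It fell by 2.86 ± 0.31 (q = 2.7e-06), which is 7.24-fold, and by 1.69 (q = 0.00371) in the low-ribosomal comparison.

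F10, coagulation factor X, had 324, 65.6, 17.6, 43.4 and 141 CPM in the same order and 0.131 to 4.55 (median 0.783) in the knockout libraries, where M2 was highest. It fell by 6.87 ± 0.92 (q = 1.41e-05; -4.98 and q = 0.00938). Fn1 (fibronectin) fell by 3.96 ± 0.57 (q = 2.51e-05; -2.98 and q = 0.00322) and Thbs1 (thrombospondin 1) by 3.91 ± 0.53 (q = 1.47e-05; -3.34 and q = 0.00396). Ccr2, the receptor that brings monocytes out of the marrow, had 1011 to 1801 CPM in the total T libraries and 227 to 927 in the knockout libraries, a smaller fall of 0.95 ± 0.21 (q = 0.00128; -0.66 and q = 0.0282). Ly6c2, the marker of classical monocytes, overlapped because knockout M2 had 82.2 CPM and total T F3 72.9, and it was at -4.03 ± 0.86 (q = 0.000995) and -2.02 (q = 0.234).

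Neutrophil granule genes moved with the monocyte-derived genes. Of 8 tested markers of neutrophils, 7 fell and 1 rose, with a median of -7.8, and 3 fell and 1 rose in the low-ribosomal comparison, with a median of -6.07. S100a8, an alarmin of neutrophils and monocytes, had 78.5, 41.4, 3.65, 12.5 and 12.1 CPM in total T F1, F2, F3, F4 and M1 and 0 to 0.958 in the knockout libraries. The libraries without T cells had 0 to 353 CPM of S100a8, so it also varied widely in the absence of T cells. The defining marker Ly6g was at 0 in all 12 libraries. The summed neutrophil list overlapped between the groups, at 232 to 542 CPM in total T and 283 to 791 in the knockout libraries. It was 299 to 1957 without T cells. Mmp9 made up most of this sum in every knockout library, with 692 of the 791 CPM in knockout F3. In total T it was 74.9 of the 542 CPM in F1 and 126 of the 232 in F3. The overlap of the sums depends on this member. Mmp9, the gelatinase that was the member that rose, had 74.9, 45.3, 126, 200 and 31.7 CPM in total T F1, F2, F3, F4 and M1 and 212 to 692 (median 397) in the knockout libraries (2.56 ± 0.39, q = 4.58e-05; 1.75 and q = 0.0228). Of 10 dendritic cell markers 5 fell and 1 rose (1 fell and none rose in the low-ribosomal comparison). Xcr1, a receptor of cross-presenting dendritic cells, had 6.39 to 16.9 CPM in total T and 0.155 to 3.48 in the knockout libraries (-2.43 ± 0.59, q = 0.00327; -2.29 and q = 0.0709). The part of these cells in the falls was not tested.

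Border macrophage genes, which mark resident macrophages of the brain's borders, moved in the opposite direction. Of 22 tested, 19 rose and none fell, with a median of 1.64, and 10 rose in the low-ribosomal comparison with a median of 0.74. Their summed level was 3735 to 11440 CPM in the total T libraries, 14560 to 23770 in the knockout libraries and 13500 to 19000 without T cells. Cbr2, a carbonyl reductase whose promoter is shown above, had 132, 238, 399, 558 and 119 CPM in total T F1, F2, F3, F4 and M1 and 893 to 1246 (median 1107) in the knockout libraries. Even the highest total T library, F4, was below every knockout library. Cbr2 rose by 1.99 ± 0.30 (q = 3.97e-05) and by 1.14 (q = 0.00548) in the low-ribosomal comparison.

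Gas6, which bridges dying cells to uptake receptors, had 149, 305, 560, 569 and 156 CPM in the same order and 875 to 1266 (median 1095) in the knockout libraries. It rose by 1.69 ± 0.28 (q = 8.65e-05; 0.89 and q = 0.00741). Folr2, a folate receptor, rose by 1.82 ± 0.34 (q = 0.000326; 0.93 and q = 0.0362), and Igf1, a growth factor, by 1.72 ± 0.29 (q = 0.000105; 0.99 and q = 0.00924). The mannose receptor Mrc1 (1.27 ± 0.28, q = 0.00144) and the hyaluronan receptor Lyve1 (2.26 ± 0.52, q = 0.00219) overlapped between the groups and did not pass in the low-ribosomal comparison (0.49 and q = 0.110; 1.05 and q = 0.225).

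Genes shared with microglia, the macrophages of the brain itself, rose as well. Of 12 tested, 10 rose and none fell, with a median of 1.25, and 6 rose in the low-ribosomal comparison with a median of 1.06. Siglech, a sialic acid-binding lectin, had 5.84, 6.62, 12.2, 17.4 and 7.09 CPM in total T F1, F2, F3, F4 and M1 and 23.3 to 112 (median 54.7) in the knockout libraries, with no overlap (2.93 ± 0.37, q = 8.65e-06; 2.43 and q = 0.00738). Siglech is also on the list of plasmacytoid dendritic cell markers, of which 3 of 5 tested rose and 1 fell. That list summed to 684 to 966 CPM in total T and 650 to 1017 in the knockout libraries. The part of such cells in the rise was not tested. Olfml3, an extracellular matrix protein of microglia, differed little between the total T libraries, at 53.1, 60.6, 58.6, 73.5 and 70.3 CPM, and had 106 to 167 in the knockout libraries. It rose by 1.16 ± 0.15 (q = 1.17e-05; 1.10 and q = 0.00692). P2ry12, a purine receptor, rose by 1.56 ± 0.24 (q = 4.09e-05; 1.16 and q = 0.0105), and Sall1, the microglial transcription factor, did not pass, at -0.43.

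Fibroblast markers moved with these rises. All 10 tested fibroblast genes rose, and 5 of them in the low-ribosomal comparison. Their summed level was 567 to 668 CPM in the total T libraries, 754 to 2087 in the knockout libraries without M4, 7902 in knockout M4 and 914 to 2573 without T cells. Col1a2, a collagen chain, had 88 to 123 CPM in the total T libraries and 142 to 468 in the knockout libraries without M4, against 1246 in M4 (2.02 ± 0.41, q = 0.000726; 1.65 and q = 0.00738). Lum, the proteoglycan lumican, is among the 8 largest rises and rests in part on knockout M4, with 296 CPM there, a knockout median of 37.7 and 9.23 to 17.7 in the total T libraries. General macrophage markers summed to 22870 to 26950 CPM in total T and 21110 to 25160 in the knockout libraries, and of 10 tested 4 rose and 2 fell. The part of fibroblast RNA in the rises was not tested.

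**Figure D5:**
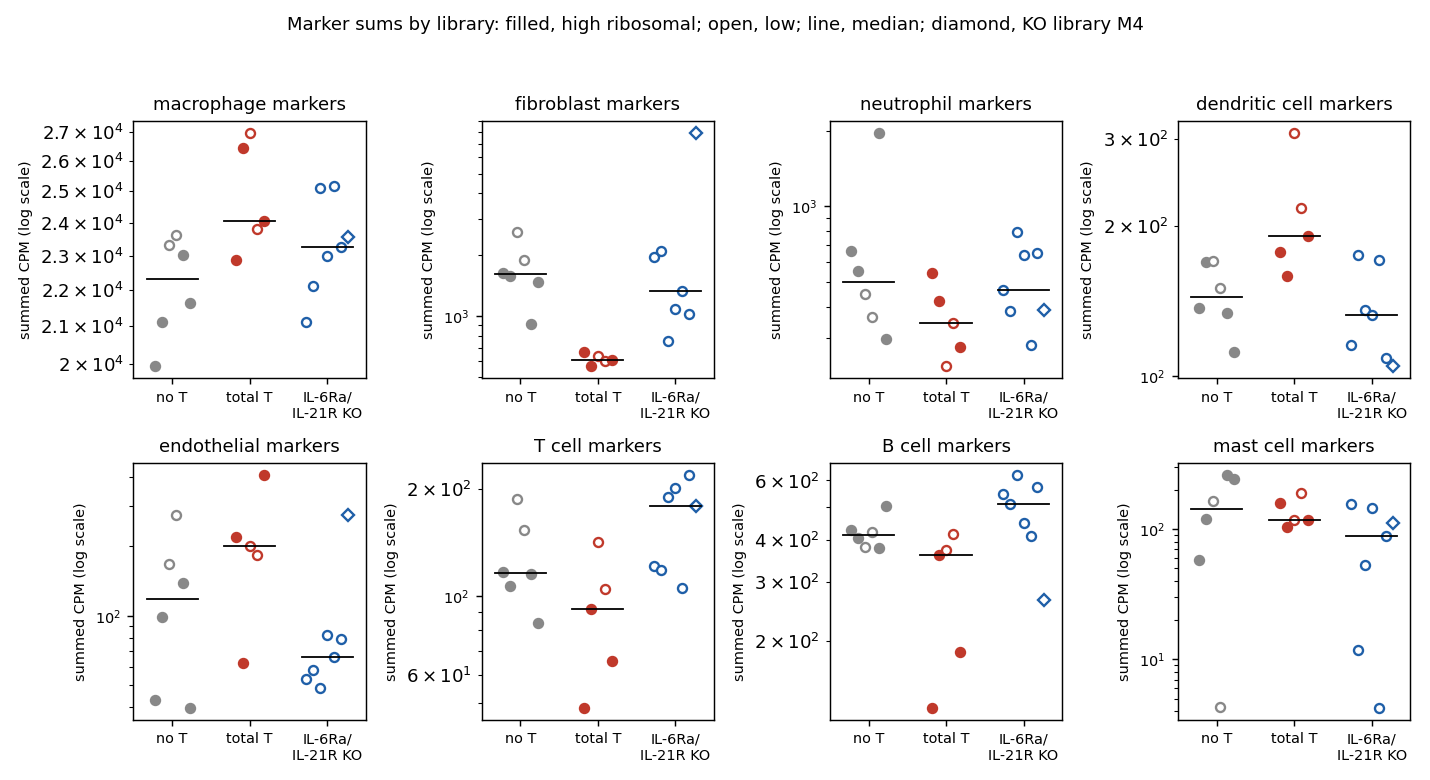
Summed CPM (log axis, range set per list) of the markers of 8 cell types in each library without T cells, with total T cells and with IL-6Ra/IL-21R knockout T cells. Filled points are libraries over the ribosomal limit, open points those under it, the diamond is knockout M4 and lines are medians. Macrophage markers overlap between the groups, and fibroblast markers are lowest in total T (567 to 668) and highest in knockout M4 (7902).

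Transcription and growth-factor signalling changed in single genes. Bhlhe40, a regulator of cytokine output, had 316, 164, 154, 169 and 316 CPM in total T F1, F2, F3, F4 and M1 and 17.8 to 55.3 (median 38.2) in the knockout libraries, without overlap. It fell by 2.57 ± 0.33 (q = 8.65e-06; -1.99 and q = 0.00770). Of 24 lineage transcription factors 6 rose and 6 fell (1 rose and 3 fell in the low-ribosomal comparison). Maf, a factor of resident macrophages, rose by 0.98 ± 0.19 (q = 0.000353; 0.67 and q = 0.0314), and Spic, which directs iron recycling in red pulp macrophages, by 1.64 ± 0.30 (q = 0.000249; 1.15 and q = 0.0166). Tgfbr2, a receptor for TGF-beta, rose by 0.76 ± 0.16 (q = 0.000799; 0.47 and q = 0.0524), while Smad7, an inhibitor of TGF-beta signalling, fell by 1.46 ± 0.23 (q = 5.27e-05; -1.18 and q = 0.0210). Tgfbi, a matrix protein that TGF-beta induces, fell by 1.14 ± 0.19 (q = 9e-05; -0.50 and q = 0.0441), and every knockout library was below every total T library for both. The other 12 of the 15 genes of that pathway did not pass.

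Iron export had the largest rise among genes above 20 CPM. Slc40a1 (ferroportin), the only known cellular iron exporter, had 5.84, 11.6, 41.1, 44.4 and 12.5 CPM in total T F1, F2, F3, F4 and M1. In the knockout libraries it had 47.2 to 463 (median 199), so the lowest of them, M2, was just above total T F4. It rose by 3.55 ± 0.56 (q = 6.67e-05), which is 11.7-fold, and by 2.66 (q = 0.0158) in the low-ribosomal comparison. Nfe2l2 (NRF2), the regulator of the antioxidant response, was even within each group, at 462, 406, 503, 432 and 461 CPM in total T F1, F2, F3, F4 and M1 against 214 to 269 in the knockout libraries. It fell by 0.95 ± 0.12 (q = 9.55e-06) and by 0.99 (q = 0.00322) in the low-ribosomal comparison. Of 18 iron and haem genes 7 rose and 4 fell (3 rose and 1 fell in the low-ribosomal comparison).

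Pattern-recognition receptors held the gene with the smallest q. Clec4e (Mincle), a lectin that senses mycobacterial glycolipid and dead cells, had 462, 175, 140, 95.3 and 368 CPM in total T F1, F2, F3, F4 and M1 and 6.71 to 26.2 (median 10.5) in the knockout libraries. The groups were far apart and the libraries without T cells had 14.8 to 36.5. It fell by 4.28 ± 0.41 (q = 1.33e-06) and by 3.33 (q = 0.000949) in the low-ribosomal comparison. Tlr2, the receptor of bacterial lipopeptides, fell by 1.06 ± 0.16 (q = 5.36e-05; -0.89 and q = 0.0166), and Tlr5, the flagellin receptor, rose by 1.54 ± 0.25 (q = 7.89e-05; 1.14 and q = 0.0130). Of 23 Toll-like and lectin receptors 8 fell and 3 rose (5 fell and 1 rose in the low-ribosomal comparison).

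Complement genes moved both ways. C3, the central complement protein, had 1572, 1113, 282, 643 and 2917 CPM in total T F1, F2, F3, F4 and M1 and 56.1 to 187 in the knockout libraries, without overlap (-3.79 ± 0.50, q = 1.09e-05; -2.61 and q = 0.0122). Cfb, the factor B of the alternative pathway, fell by 3.84 ± 0.47 (q = 6.64e-06; -2.26 and q = 0.0187). Over the 16 complement genes 5 rose and 3 fell (none rose and 3 fell in the low-ribosomal comparison). Tgm2, a transglutaminase used in engulfment, fell by 3.51 ± 0.45 (q = 8.54e-06; -2.39 and q = 0.00610), with Rprd1b on the opposite strand.

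Glycolysis genes were lower, and many were affected by the library split. Of 23 tested, 20 fell and none rose, with a median of -1.44, and 6 fell in the low-ribosomal comparison with a median of -0.62. Gapdh, a central enzyme of the pathway, had 893, 429, 41.8, 54.9 and 847 CPM in total T F1, F2, F3, F4 and M1 and 22.6 to 38.6 in the knockout libraries. Total T F3 and F4 were close to the knockout range, and in the libraries without T cells Gapdh reached 328. Its change of -4.07 ± 0.61 (q = 4.19e-05) was -0.88 (q = 0.451) in the low-ribosomal comparison, and Pgk1 likewise went from -3.61 (q = 3.08e-05) to -0.80 (q = 0.349).

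Transporters at the 2 ends of the pathway held in both. So did the enzymes Ldha (-1.38 ± 0.19, q = 2.05e-05; -0.68 and q = 0.00977) and Pfkp (-2.02 ± 0.26, q = 8.65e-06; -1.03 and q = 0.0144). Pkm (-1.70 ± 0.25, q = 2.59e-05; -0.72 and q = 0.01005, groups overlapping) and Hif1a (-1.85 ± 0.26, q = 2.52e-05; -0.72 and q = 0.0384) held as well. With the 2 transporters they are the 6 list members that fell in the low-ribosomal comparison. Slc2a1 (GLUT1), which brings glucose in, had 407, 136, 110, 115 and 385 CPM in total T F1, F2, F3, F4 and M1 and 25.4 to 48.6 (median 27.5) in the knockout libraries. All knockout values were lower (-2.91 ± 0.35, q = 5.34e-06; -1.77 and q = 0.00698). Slc16a3 (MCT4), which carries lactate out, fell by 3.70 ± 0.45 (q = 6.24e-06; -2.06 and q = 0.00626). Of 29 respiratory chain genes 17 fell over all 12 libraries and none in the low-ribosomal comparison, where the median was -0.14. In cholesterol synthesis Mvd, a decarboxylase of the mevalonate pathway, fell by 1.36 ± 0.24 (q = 0.000189; -1.12 and q = 0.0354). There 6 of 21 genes fell and none rose, with a median of -0.49 (2 fell and none rose in the low-ribosomal comparison, median -0.23).

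Lysosomal genes were divided, with 7 of 28 higher and 8 lower (1 higher and 4 lower in the low-ribosomal comparison). Gla, the alpha-galactosidase, had 125, 98.6, 115, 120 and 138 CPM in total T F1, F2, F3, F4 and M1 and 34.1 to 79.5 (median 41.6) in the knockout libraries. It did not follow the ribosomal split and fell by 1.35 ± 0.17 (q = 8.65e-06) and by 1.41 (q = 0.00262) in the low-ribosomal comparison. Psap, the precursor of the saposins, fell by 0.84 ± 0.12 (q = 3.08e-05; -0.71 and q = 0.00768), whereas Glb1, the beta-galactosidase, rose by 0.60 ± 0.10 (q = 9.51e-05; 0.44 and q = 0.0255).

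Early-response genes, which tissue digestion is known to induce, were called higher in the knockout group more often than lower. Of 20 tested, 10 rose and 1 fell, with a median of 0.59, and 4 rose in the low-ribosomal comparison with a median of 0.23. Jun, an AP-1 subunit, had 570, 981, 974, 900 and 667 CPM in total T F1, F2, F3, F4 and M1 and 1833 to 3534 (median 2328) in the knockout libraries, without overlap (1.58 ± 0.22, q = 1.91e-05; 1.28 and q = 0.00961). Junos overlaps it on the opposite strand. S1pr1, a receptor for the lipid sphingosine 1-phosphate, was among the 8 largest rises, with 11.9, 12.8, 34.2, 29.4 and 10.2 CPM in total T F1, F2, F3, F4 and M1 and 77.7 to 139 (median 99.2) in the knockout libraries. It rose by 2.46 ± 0.30 (q = 6.24e-06; 1.63 and q = 0.00361). Cell cycle genes stayed mostly uncalled, with 22 of 26 not passing over all 12 libraries and none called in the low-ribosomal comparison.

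On GRCm38 with the GENCODE M21 annotation, the genes that these results turn on lie on several chromosomes. Ptgs2 spans chr1:150100031-150108227, Slc40a1 chr1:45908068-45926523 and Gbp2 chr3:142620602-142638008. Slc2a1 spans chr4:119108711-119137983, Clec4e chr6:123281789-123289870, Itgal chr7:127296260-127335138 and Cbr2 chr11:120729489-120732114. Acod1 spans chr14:103046977-103056573, Tap1 chr17:34187553-34197225 and Cd274 chr19:29367455-29388095. Counts are over the exons of a gene as a whole, so they do not place a change in an exon or untranslated region.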

How the data were processed

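Deposited whole-number counts per gene for 27 libraries were used, of which 12 enter the comparison. The deposited table is named as normalized, but every whole number from 1 to 20 occurs in each column and the totals differ, which fits raw counts and not scaled ones, and count tests were used. GRCm38, featureCounts, STAR 2.4.0j and DESeq2 1.20.0 are named in the submitters' processing notes, and their settings were not given in the sources used here. Per the labels' protocols, libraries were unstranded and read from a single end over 75 nucleotides. Columns were matched to groups by name. Of 41388 gene identifiers, 40254 have a GENCODE M21 symbol, and the rest took 0.106% to 0.143% of a library's counts.

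A gene was kept when its normalized count averaged 10 or more across all 27 libraries (12661 genes). An edgeR 4.0.16 quasi-likelihood model (R 4.3.3, TMM scaling, group and sex as terms) was fitted to all 27 libraries, and the contrast's p-values were adjusted by Benjamini-Hochberg over all genes (q). CPM divide each count by the TMM-adjusted library total and put all libraries on one scale; ribosomal sums used for the split use the plain total. The low-ribosomal comparison refits the model without total T F1, F2 and M1 and knockout M4; its lone pair of total T libraries relies on the spread shared by all groups. Alternatives were DESeq2 1.42.0 and its size factors, no filter, the 12 libraries alone, no sex term, females alone, libraries left out, and, chosen after seeing the data, the library set as a term, a test against 1.5-fold and a fit of 8 libraries. Library pairs within groups differed by more than sampling noise, with a chi-square per degree of freedom of 9.53 to 138 over 31 pairs.

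Named genes are, per list, the 2 called genes of smallest q and the smallest q in the rarer direction, the 8 largest changes each way with a mean of at least 20 CPM, and 10 genes of the IFN-gamma and IL-17 axes; other genes named as examples were chosen after their values were seen. The members and lists were chosen with earlier results of these data known. Lists are described by counts and medians, with no test. The script was tested on simulated data. Promoters are from RefSeq. Some genes that the rule names are not reported here, and Gbp5, Gbp6 and Gbp10 were not analysed here.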

Additional observations from a re-analysis of the deposited data

Results flagged for a closer look

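In 183 groups of library values a gap test for the highest or lowest library gave 8 results; chance gives about 1 in 20 groups. In the total T group, F1 stood apart as highest for Ifng (4.14 CPM) and for Il17a (1.09), and F2 as lowest for Nlrc4 (13.2). Il17a was 0 in the other total T libraries, so its flag was fixed by the zeros. Ifng was 0 in F2, F3 and F4 and 0.376 in M1, so the rate expected by chance is no guide for these genes. In the knockout group, M4 stood apart as highest for Lum (296) and as lowest for Rpl41 (101) and Pcna (74.5). Knockout M2 was highest for Apoc2 (14.6), and knockout M3 lowest for Cfb (0.960).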

How the results depend on the processing

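The number of genes called depended on which libraries were used. Against 3567 over all 12 libraries (1658 higher, 1909 lower), total T F3 and F4 alone gave 453 (175 higher, 278 lower), and without knockout M4 as well 745 (311 and 434), while total T F1, F2 and M1 alone gave 4068 (2031 and 2037). The 8 of the 12 libraries with ribosomal sums between 10000 and 20000 CPM, in a fit of their own that left out knockout M4, total T F1, F2 and M1 and all libraries of the other groups, gave 345 (102 and 243), and the library set as a term 1812 (801 and 1011). Females alone gave 634 (185 and 449), and a test against a change of 1.5-fold 1018 (405 and 613). Fitting the 12 libraries alone gave 1001 higher. Leaving out 1 library at a time gave 2428 to 3852 genes, and 1050 (without total T M1) to 1816 (without total T F3) higher. DESeq2 called 4002. The cause was not tested beyond these refits, which have fewer libraries or another threshold. The total T comparison of F3 and F4 has n = 2, and DESeq2's size factors and the unfiltered table kept the total within 1.5 times.

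Of 91 named genes tested, 62 kept their direction and their side of the threshold in the low-ribosomal comparison, 28 no longer passed and 1 changed sign. In the fit of 8 libraries 40 kept both, 49 no longer passed and 2 changed sign, and in females alone 51 kept both and 40 no longer passed. Against total T F3 and F4 alone 53 kept both, 37 no longer passed and 1 changed sign, and against the high-ribosomal total T libraries all 91 kept both. Among those lost in the fit of 8 were Siglech (q = 0.0596), Slc40a1 (q = 0.101), H2-DMb1 (q = 0.106) and Il1r2 (q = 0.114). Rps6 was among the genes that changed sign and was at 1.19 against total T F3 and F4 alone, 1.26 without knockout M4 as well, 1.12 with the library set as a term and 1.87 in the fit of 8 libraries. Nlrc4, Ifngr2, Isg15, Cdk1 and Rpl7l1 stopped passing when single libraries were left out.

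List medians near 0 changed sign. Chemokines were at 0.47 and lipid handling at 0.04 against the high-ribosomal total T libraries. Type I interferon genes were at 0.19 in females, 0.29 against total T F3 and F4, 0.27 without knockout M4 as well, 0.09 with the set term and 0.34 in the fit of 8. The TGF-beta pathway was at 0.01, 0.03 and 0.02 in females, against F3 and F4 and in the fit of 8, and the lysosome at 0.01 in females. Dead-cell uptake was at -0.01, -0.02 and -0.03 against F3 and F4, without knockout M4 as well and in the fit of 8, where the cell cycle was at -0.01. Prostaglandin and leukotriene genes were at -0.19 without knockout M4, -0.01 in the low-ribosomal comparison and -0.03 with the set term. Erythroid markers were at -0.05 without the sex term, and macrophage markers at -0.0 without knockout M4. With 1 library left out at a time, medians ranged from -0.36 to 0.01 for chemokines, -0.19 to 0.27 for prostaglandin and leukotriene genes, -0.23 to 0.15 for type I interferon, -0.09 to 0.0 for the lysosome, -0.25 to 1.17 for erythroid, -0.04 to 0.12 for osteoclast and -0.07 to 0.08 for macrophage markers. No paired analysis was possible because the columns carry no replicate numbers of the sample titles.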
